A study of Mus musculus with 12 samples.

Results

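The 10 genes described here encode core parts of the autophagy machinery and were chosen by name: Ulk1, Becn1, Atg5, Atg7, Atg16l1, Map1lc3a, Map1lc3b, Gabarapl1, Sqstm1 and Optn. They are 10 of the 55335 genes in the expression table, and each was found there by its symbol. All 10 passed the filter for testing, an FPKM (fragments scaled to gene length and to all mapped fragments of the library) of at least 1 in at least 3 of 12 libraries, which 12622 genes passed in all.

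RNA sequencing of bone marrow-derived macrophages (BMDMs) was carried out in 4 groups of 3 libraries. Wild-type BMDMs came from C57BL/6 mice, and Nlrp3-/- BMDMs came from mice that lack Nlrp3, the sensor of an inflammasome, in every cell. The mice were 8 weeks old, and marrow had been grown with macrophage colony-stimulating factor for 7 days. Each genotype was left without stimulation or was given lipopolysaccharide (LPS) for 4 h and then adenosine triphosphate (ATP) for 30 min by the labels, whereas the culture methods of the study describe longer exposures. The study's methods speak of independent replicates in general, but neither they nor the labels say whether the 3 libraries of a group came from separate animals or cultures, so p-values measure only the spread between these libraries, which may be technical.

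Macroautophagy encloses cytoplasm in a double membrane and delivers it to the lysosome. The ULK1 kinase complex starts the process, the Beclin 1 lipid kinase complex marks the site, and a ubiquitin-like conjugation system attaches ATG8 proteins (the LC3 and GABARAP families) to the growing membrane. Receptors such as p62 and optineurin bind both ubiquitin and ATG8 proteins and so select cargo. In macrophages the pathway is known for degrading damaged mitochondria and bacteria, and for limiting inflammasome activity. Transcript levels, which were measured here, do not measure autophagic flux.

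The labels were first checked against the targeted gene. Nlrp3 stood at 9.24, 9.71 and 10.1 FPKM in unstimulated wild-type BMDMs and at 32.1, 33.0 and 33.6 after LPS and ATP costimulation, and its listed value was 0 in each of the 6 Nlrp3-/- libraries. The LPS-induced cytokine genes Il1b, Il6 and Tnf were higher with LPS and ATP in both genotypes, with log2 fold changes in wild-type BMDMs of 10.13, 5.35 and 6.08 and in Nlrp3-/- BMDMs of 8.66, 4.77 and 5.08. All 8 macrophage markers examined were detected, with Lyz2 the most abundant.

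The genotypes also differed in other ways. Xist, expressed from the inactive X chromosome, had a mean of 53.8 FPKM in unstimulated Nlrp3-/- BMDMs against 0.0280 in unstimulated wild-type BMDMs. Of the Y-linked genes, Uty, Kdm5d, Ddx3y and Eif2s3y had values above 0 in each of the 6 wild-type libraries and 0 in each Nlrp3-/- library, so genotype and sex cannot be told apart. Nnt, a gene with a known deletion in some C57BL/6 substrains, averaged 9.38 FPKM in unstimulated wild-type and 1.16 in unstimulated Nlrp3-/- BMDMs. The part of these differences in the values below was not tested.

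Among the members, Sqstm1 had the highest level in every group, followed by Gabarapl1 and Atg5. FPKM is a level per length, so that genes can be compared. The order in unstimulated wild-type BMDMs went on with Atg7, Map1lc3b, Optn, Map1lc3a, Becn1, Ulk1 and Atg16l1, from a mean of 16.5 FPKM for Atg7 to 3.69 for Atg16l1. Optn overlapped with Map1lc3a in its library values, as did Map1lc3a with Becn1, whereas the other neighbors in this order were separate. After LPS and ATP, Atg7 stood in the seventh place in wild-type BMDMs, after the fourth without stimulation. There the neighbors Optn, Map1lc3b and Becn1 overlapped in turn, as did Ulk1 and Map1lc3a. Map1lc3a took the fourth place in unstimulated Nlrp3-/- BMDMs, where it overlapped with Map1lc3b, and Becn1 with Optn. With stimulation Optn, Becn1 and Map1lc3b overlapped in turn in Nlrp3-/- BMDMs, and so did Ulk1 and Atg7. Atg16l1 was last in all 4 groups.

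**Figure D1:**
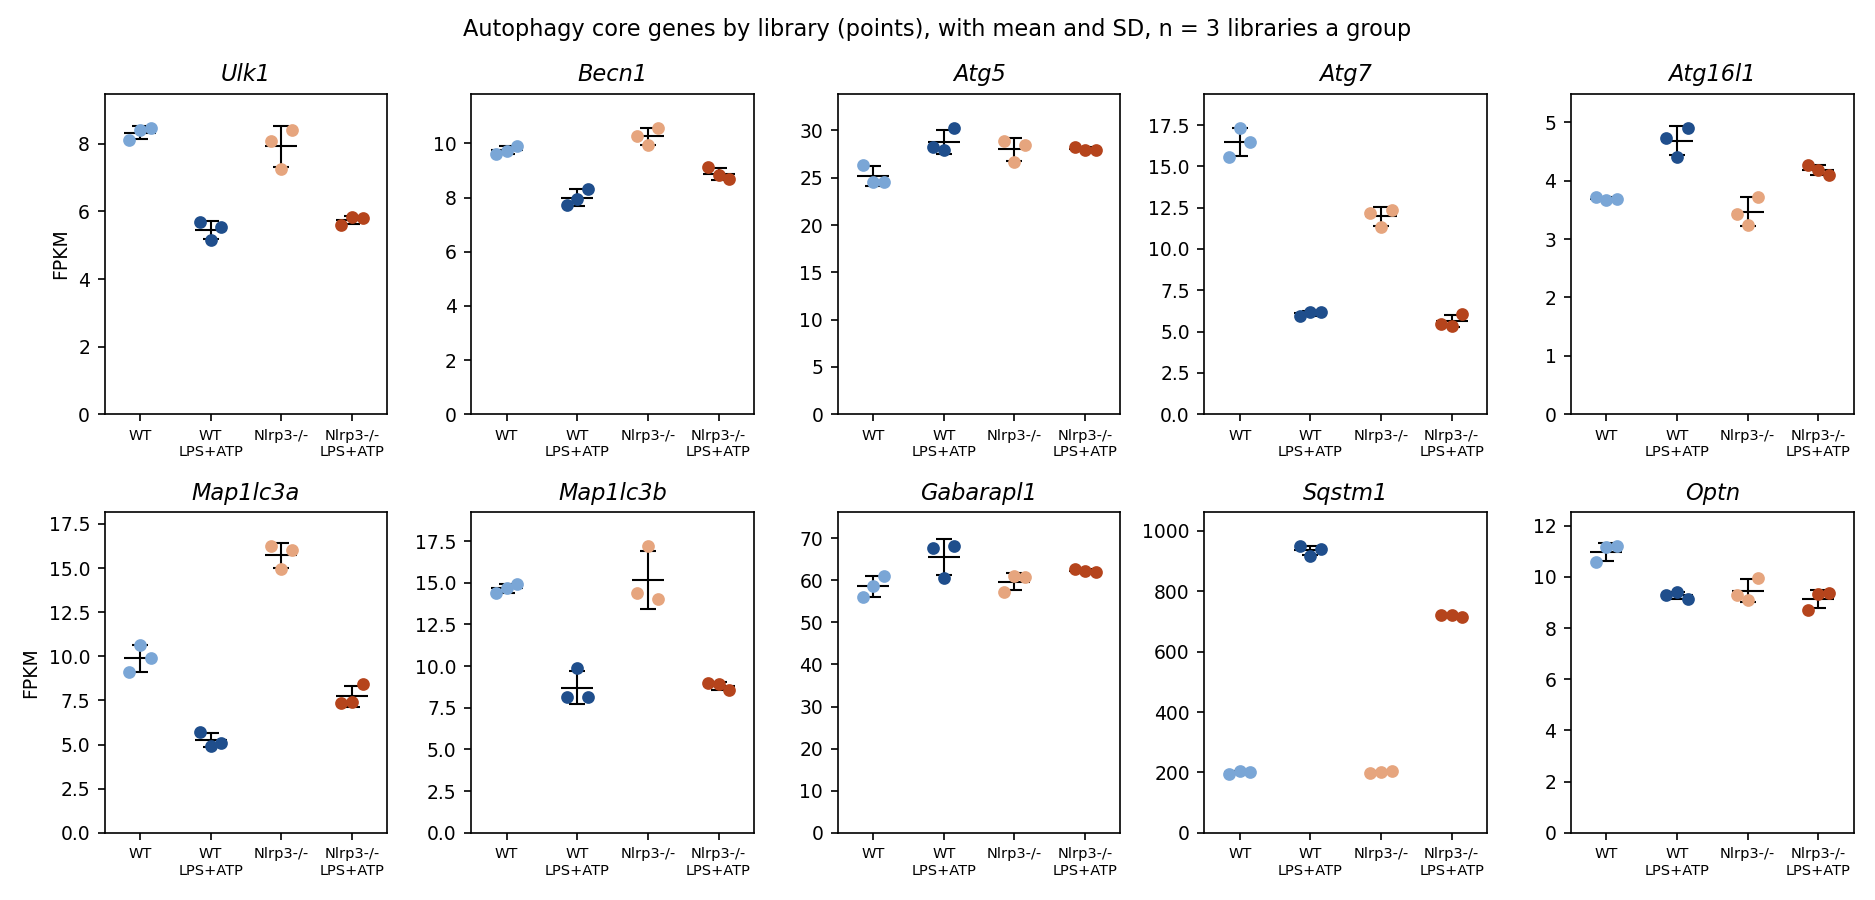
FPKM of each of the 10 autophagy core genes (y axis, from 0, with its own scale in each panel) in the 4 groups (x axis, WT for wild type). Points are libraries, and bars give the mean and SD of 3 libraries. Sqstm1 rose to 918 or more in stimulated wild-type libraries from at most 203 without stimulation, and Atg7 fell to 6.20 or less from at least 15.6.

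LPS and ATP costimulation changed all 10 members in wild-type BMDMs at an adjusted p under 0.05 (limma, Benjamini-Hochberg over all tested genes). Of these, 4 were higher, where 23.3% of all tested genes were, and 6 were lower, where 53.1% of all tested genes were. With a log2 fold change of at least 1 added to the rule, here called a differentially expressed gene (DEG), 1 member was a higher DEG (8.25% of all tested genes) and 1 a lower DEG (11.2%). The counts in Nlrp3-/- BMDMs were 2 members higher (20.6% of all tested genes), 5 lower (53.8%) and 3 not called. There, 1 member was a higher DEG (6.64%) and 0 were lower DEGs, against 8.21% of all tested genes. Most genes changed in these comparisons, so the counts of members say little on their own, and the sizes below carry the description.

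All fold changes were computed from log2(FPKM + 1), so for genes of low level they come out smaller than the change in FPKM. The median log2 fold change over all tested genes was -0.255 in wild-type and -0.242 in Nlrp3-/- BMDMs, and the median of the 10 members was -0.24 and -0.12. Median-ratio scaling, which sets the typical gene to no change, moved the all-gene medians to -0.01 in both genotypes. The split of called genes in wild-type BMDMs then went from 2940 higher and 6701 lower to 4468 higher and 4505 lower (35.4% and 35.7% of all tested genes), and in Nlrp3-/- BMDMs from 2594 and 6789 to 4114 and 4164 (32.6% and 33.0%). For the members, this scaling gave 4 higher and 4 lower in wild-type and 5 higher and 4 lower in Nlrp3-/- BMDMs. Small changes are therefore also given relative to the all-gene median or under median-ratio scaling.

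The promoter windows of 3 members are shown, from a search for motifs of factors known to act on autophagy and stress genes. Of the 10 members, 7 were matched to a RefSeq promoter (build GRCm38.p6); Map1lc3a, Becn1 and Atg16l1 were not. Searched on both strands were the E-box TCACGTG, bound by factors of the TFEB family, and the antioxidant response element TGACNNNGC, bound by NRF2. Among all 32851 promoter windows, 3.77% held the E-box and 12.4% the antioxidant element. Of the 7 matched members, 1 held each. The hexamer TATAAA, found in 13.6% of all windows, was added after the sequences were seen. The 3 windows shown are the matched member windows that held any of these motifs, Sqstm1 only through the added hexamer. Those of Gabarapl1, Ulk1, Atg5 and Optn held none and are not shown. Each sequence runs 5′ to 3′ on the strand of the gene for 280 bases, from 250 bases before the RefSeq start. The search covered the full RefSeq windows, which run slightly past the stretches shown. Capitals mark the matches, TATAAA in Sqstm1, the E-box in Atg7 and the antioxidant element in Map1lc3b. The windows lie at chr11:50210791-50211070 (minus strand) for Sqstm1, chr6:114670846-114671125 (plus strand) for Atg7 and chr8:121590188-121590467 (plus strand) for Map1lc3b.
Sqstm1: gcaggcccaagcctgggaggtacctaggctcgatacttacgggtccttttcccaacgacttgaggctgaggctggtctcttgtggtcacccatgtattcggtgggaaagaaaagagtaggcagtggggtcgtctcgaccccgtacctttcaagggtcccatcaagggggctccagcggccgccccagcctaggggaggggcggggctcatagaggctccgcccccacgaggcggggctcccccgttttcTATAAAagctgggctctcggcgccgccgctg
Atg7: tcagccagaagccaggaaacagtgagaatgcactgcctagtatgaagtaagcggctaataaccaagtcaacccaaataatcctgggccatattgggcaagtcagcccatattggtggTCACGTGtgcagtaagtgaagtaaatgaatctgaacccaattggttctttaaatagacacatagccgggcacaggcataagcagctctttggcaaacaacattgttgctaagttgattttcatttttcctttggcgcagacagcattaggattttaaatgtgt
Map1lc3b: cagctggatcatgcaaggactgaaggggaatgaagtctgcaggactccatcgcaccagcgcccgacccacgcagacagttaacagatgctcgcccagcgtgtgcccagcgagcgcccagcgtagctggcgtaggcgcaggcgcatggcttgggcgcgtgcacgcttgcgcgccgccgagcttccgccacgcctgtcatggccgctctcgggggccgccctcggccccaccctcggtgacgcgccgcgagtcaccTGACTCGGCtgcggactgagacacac
The E-box of Atg7 begins 133 bases before the RefSeq start, and that start lies 27999 bases inside the gene as GENCODE M21 annotates it, so the window is not at the 5′ end of the annotated gene. In Map1lc3b the antioxidant element begins at base 5 after the start. The TATAAA of Sqstm1 begins 1 base before the RefSeq start and so spans that start. A match describes letters only and is no evidence of binding.

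Sqstm1 encodes p62, the receptor that carries ubiquitinated cargo to the autophagosome and is itself degraded there. Its level was 195, 203 and 201 FPKM in unstimulated wild-type BMDMs and 949, 918 and 940 FPKM after LPS and ATP. Nlrp3-/- libraries had 198, 202 and 205 FPKM without stimulation and 722, 722 and 715 FPKM with it. The unstimulated genotypes overlapped, every stimulated library was above every unstimulated one, and all 3 stimulated wild-type libraries were above all 3 stimulated Nlrp3-/- libraries. The log2 fold change with LPS and ATP was 2.22 ± 0.02 (SE) in wild-type (adjusted p = 1.9e-14, limma) and 1.83 ± 0.02 in Nlrp3-/- BMDMs (adjusted p = 1.1e-13), a ratio of mean FPKM of 4.68 and 3.57. Sqstm1 was the only member called a higher DEG, and it was so in both genotypes under every scaling tried.

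Optn encodes optineurin, a receptor in the removal of mitochondria and bacteria. In wild-type BMDMs it went from 10.6, 11.2 and 11.2 FPKM to 9.29, 9.42 and 9.13 FPKM with LPS and ATP, with no overlap. Its Nlrp3-/- values were 9.29, 9.10 and 9.97 FPKM without and 8.71, 9.32 and 9.37 FPKM with stimulation, and these ranges overlapped. The log2 fold change in wild-type BMDMs was -0.22 (adjusted p = 0.00084, limma), which is 0.03 above the all-gene median. Under median-ratio scaling it was 0.08 and was not called. The log2 fold change in Nlrp3-/- BMDMs was -0.04 (adjusted p = 0.38) and 0.22 under median-ratio scaling (adjusted p = 0.00119). The difference between these responses did not pass the test (interaction 0.18, adjusted p = 0.0607), though it did under TPM (0.20, adjusted p = 0.0459) and without the first unstimulated wild-type library (0.20, adjusted p = 0.0421), the third unstimulated Nlrp3-/- library (0.21, adjusted p = 0.0332) or the first stimulated Nlrp3-/- library (0.21, adjusted p = 0.0406). Within the same libraries, which needs no scaling, the ratio of Sqstm1 to Optn FPKM rose from 18.2 ± 0.225 to 100.8 ± 2.97 in wild-type and from 21.4 ± 0.816 to 78.9 ± 3.51 (means ± SD, n = 3) in Nlrp3-/- BMDMs.

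Map1lc3a, Map1lc3b and Gabarapl1 encode ATG8 proteins, which coat the autophagosome membrane and hold the receptors. Map1lc3a was at 9.10, 10.6 and 9.93 FPKM in unstimulated and 5.69, 4.94 and 5.09 FPKM in stimulated wild-type BMDMs. Nlrp3-/- BMDMs went from 16.2, 14.9 and 16.0 FPKM to 7.34, 7.39 and 8.43 FPKM. All 3 Nlrp3-/- libraries were above all 3 wild-type libraries in both states. The ratio of means between genotypes was 1.59 without and 1.47 with stimulation. With LPS and ATP it fell by 0.80 on the log2 scale in wild-type (adjusted p = 9.2e-07, limma) and by 0.94 in Nlrp3-/- BMDMs (adjusted p = 2.8e-07).

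Map1lc3b was at 14.4, 14.7 and 14.9 FPKM in unstimulated and at 8.14, 9.87 and 8.12 FPKM in stimulated wild-type BMDMs. The Nlrp3-/- values were 14.4, 17.2 and 14.0 FPKM without and 9.01, 8.91 and 8.56 FPKM with stimulation. Stimulated libraries were below unstimulated ones in both genotypes, while the genotypes overlapped in each state. The log2 fold changes were -0.69 (adjusted p = 1.1e-05, limma) and -0.71 (adjusted p = 1e-05). Both LC3 genes were lower with LPS and ATP under every scaling tried, by 0.55 and 0.44 more than the all-gene median in wild-type and by 0.70 and 0.47 more in Nlrp3-/- BMDMs.

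Gabarapl1 had 56.0, 58.7 and 61.0 FPKM in unstimulated and 67.7, 60.5 and 68.1 FPKM in stimulated wild-type BMDMs, and these ranges overlapped. The Nlrp3-/- libraries had 57.3, 61.0 and 60.7 FPKM, and then 62.8, 62.3 and 61.9 FPKM, with the stimulated ones all above the others. The log2 fold change was 0.16 in wild-type BMDMs (adjusted p = 0.0117, limma) and 0.06 in Nlrp3-/- BMDMs (adjusted p = 0.263). The call in wild type was lost without the third stimulated library (0.13, adjusted p = 0.05), and the value in Nlrp3-/- BMDMs was called under TPM (0.13, adjusted p = 0.0407), upper-quartile (0.19, adjusted p = 0.00589) and median-ratio scaling (0.35, adjusted p = 6e-05). The wild-type values under these scalings were 0.21, 0.33 and 0.48, all called and each above the Nlrp3-/- value. The difference between the responses did not pass the test (interaction -0.09, adjusted p = 0.347).

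The composition of the family can be read within each library, with no scaling between libraries. This measure was added after the values were seen and was not tested. Gabarap, which is not a member, held the largest share of the summed FPKM of the 5 ATG8 genes, 69.8% ± 0.159 (SD, n = 3) in unstimulated and 64.8% ± 0.80 in stimulated wild-type BMDMs. The share of Gabarapl1 went from 17.6% ± 0.31 to 24.8% ± 1.28 in wild-type and from 19.1% ± 0.19 to 26.1% ± 0.553 in Nlrp3-/- BMDMs, with no overlap in either. The share of Map1lc3a went from 2.97% ± 0.189 to 1.99% ± 0.131 and from 5.04% ± 0.347 to 3.23% ± 0.215, and that of Map1lc3b from 4.41% ± 0.0365 to 3.31% ± 0.431 and from 4.86% ± 0.541 to 3.70% ± 0.15. The share of Gabarap in Nlrp3-/- BMDMs went from 65.2% ± 0.739 to 61.5% ± 0.509. Gabarapl1 thus gained share in both genotypes while both LC3 genes lost it. A share also rises when other genes of the sum fall. Gabarap fell from a mean of 232 to 171 FPKM in wild-type and from 204 to 147 FPKM in Nlrp3-/- BMDMs (log2 fold changes of -0.44 and -0.47, both called). Gabarapl1 itself was not called in Nlrp3-/- BMDMs in FPKM as deposited. The ratio of Sqstm1 to the summed ATG8 FPKM went from 0.601 ± 0.00876 to 3.55 ± 0.0149 in wild-type and from 0.646 ± 0.0123 to 3.02 ± 0.0583 in Nlrp3-/- BMDMs.

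**Figure D2:**
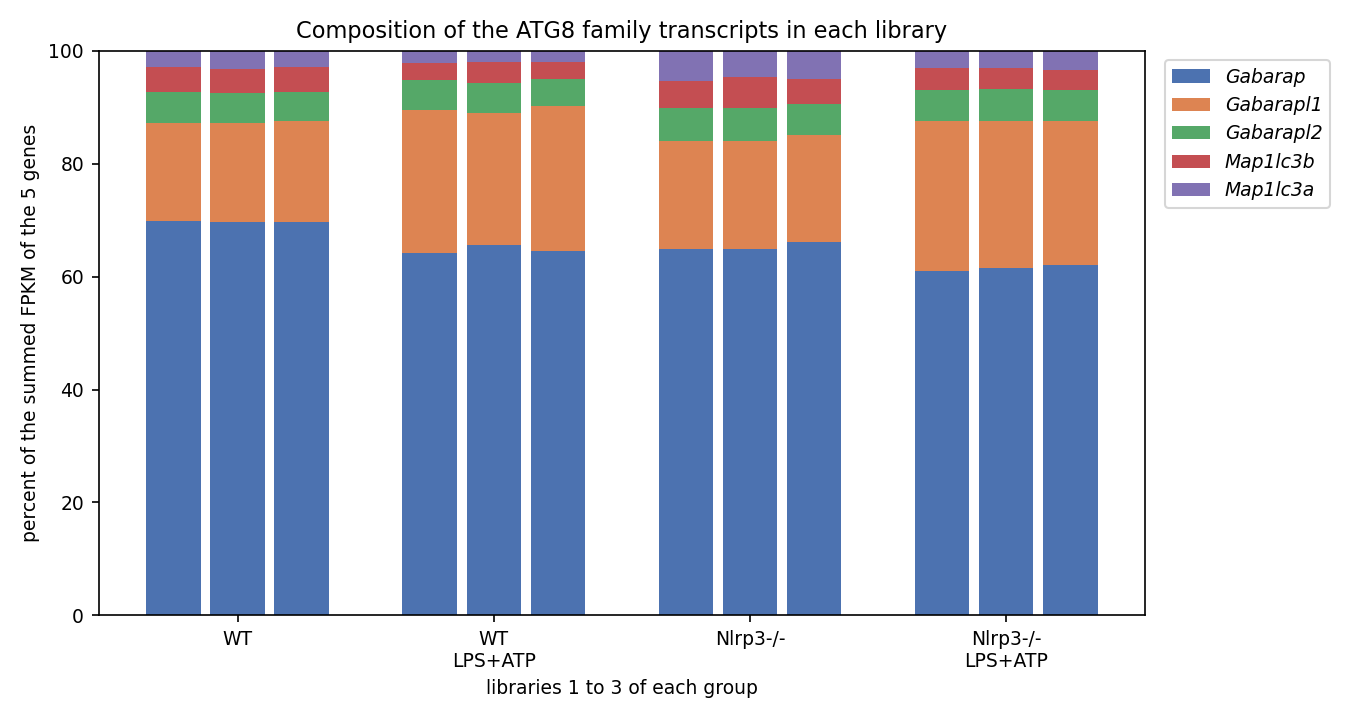
Share of each ATG8 family gene in the summed FPKM of the 5 genes (y axis, percent), for libraries 1 to 3 of each group (x axis, WT for wild type). Each bar is 1 library. The Gabarapl1 part widened with LPS and ATP, from at most 17.9% to at least 23.3% in wild-type libraries and from at most 19.3% to at least 25.5% in Nlrp3-/- libraries.

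Ulk1 encodes the kinase that starts autophagy. It was at 8.11, 8.42 and 8.47 FPKM in unstimulated and 5.68, 5.16 and 5.54 FPKM in stimulated wild-type BMDMs, and at 8.08, 7.26 and 8.42 FPKM and then 5.61, 5.85 and 5.80 FPKM in Nlrp3-/- BMDMs. All stimulated libraries were below all unstimulated ones, and the genotypes overlapped in both states. The log2 fold changes were -0.53 (adjusted p = 3.2e-06, limma) and -0.40 (adjusted p = 4.1e-05), and under median-ratio scaling -0.25 and -0.14, both still called.

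Becn1 encodes Beclin 1, the scaffold of the lipid kinase complex. Wild-type BMDMs had 9.62, 9.73 and 9.92 FPKM without and 7.71, 7.95 and 8.32 FPKM with LPS and ATP, and Nlrp3-/- BMDMs had 10.3, 9.95 and 10.6 FPKM and then 9.12, 8.83 and 8.70 FPKM. The stimulated libraries were lower in both genotypes, and in both states the Nlrp3-/- libraries were all above the wild-type ones, by a narrow gap. The log2 fold changes of -0.26 (adjusted p = 0.00011, limma) and -0.19 (adjusted p = 0.00121) differed from the all-gene median by 0.00 and 0.05, and under median-ratio scaling they were 0.04 and 0.08 and were not called. Becn1 therefore moved with the typical gene. It lies on chromosome 11, as Sqstm1 and Nlrp3 do.

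Atg7, Atg5 and Atg16l1 act in conjugation. Atg7 is the E1-like enzyme that activates both ATG12 and the ATG8 proteins. It was at 15.6, 17.3 and 16.5 FPKM in unstimulated wild-type BMDMs and at 5.92, 6.20 and 6.19 FPKM after LPS and ATP. Its Nlrp3-/- values were 12.2, 11.3 and 12.4 FPKM, and then 5.48, 5.35 and 6.04 FPKM. Without stimulation all Nlrp3-/- libraries were below all wild-type libraries, whereas the stimulated libraries of the genotypes overlapped. Atg7 fell by 1.30 on the log2 scale in wild-type (adjusted p = 1.4e-09, limma), which made it the only lower DEG among the members, and by 0.97 in Nlrp3-/- BMDMs (adjusted p = 2.4e-08), just under the DEG threshold, which it passed without the second unstimulated Nlrp3-/- library (-1.01). Relative to the all-gene median these were -1.04 and -0.73.

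Atg5, which is joined to ATG12, had 26.4, 24.5 and 24.6 FPKM in unstimulated and 28.2, 28.0 and 30.3 FPKM in stimulated wild-type BMDMs. Nlrp3-/- libraries had 28.9, 26.6 and 28.5 FPKM, and then 28.2, 27.9 and 28.0 FPKM. The wild-type ranges did not overlap and the Nlrp3-/- ranges did. Its log2 fold change was 0.19 (adjusted p = 0.00217, limma) in wild-type and 0.00 (adjusted p = 0.969) in Nlrp3-/- BMDMs. Median-ratio scaling gave 0.51 (adjusted p = 5.8e-07) in wild-type and 0.28 (adjusted p = 1e-04) in Nlrp3-/- BMDMs. Within libraries, the ratio of Atg5 to Atg7 FPKM rose from 1.53 ± 0.143 to 4.72 ± 0.194 in wild-type and from 2.34 ± 0.0371 to 4.999 ± 0.322 in Nlrp3-/- BMDMs (means ± SD, n = 3).

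Atg16l1, which places the ATG12-ATG5 conjugate on the membrane, had the lowest levels, from 3.66 to 3.72 FPKM in unstimulated and from 4.41 to 4.90 FPKM in stimulated wild-type BMDMs. Its Nlrp3-/- values were 3.43, 3.23 and 3.73 FPKM, and then 4.27, 4.18 and 4.10 FPKM, so that the unstimulated genotypes overlapped and the stimulated Nlrp3-/- libraries were all below the wild-type ones. That genotype difference with stimulation did not pass the test (-0.13, adjusted p = 0.054, limma) but did under upper-quartile (-0.23, adjusted p = 0.00281) and median-ratio scaling (-0.29, adjusted p = 0.00051). With stimulation Atg16l1 rose by 0.28 on the log2 scale in wild-type (adjusted p = 0.00047, limma), and in Nlrp3-/- BMDMs by 0.22 (adjusted p = 0.00274), and did so under every scaling tried. Median-ratio scaling gave rises of 0.55 in wild-type and 0.44 in Nlrp3-/- BMDMs. The conjugation genes thus did not move together, since Atg7 fell while Atg16l1 rose in both genotypes.

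**Figure D3:**
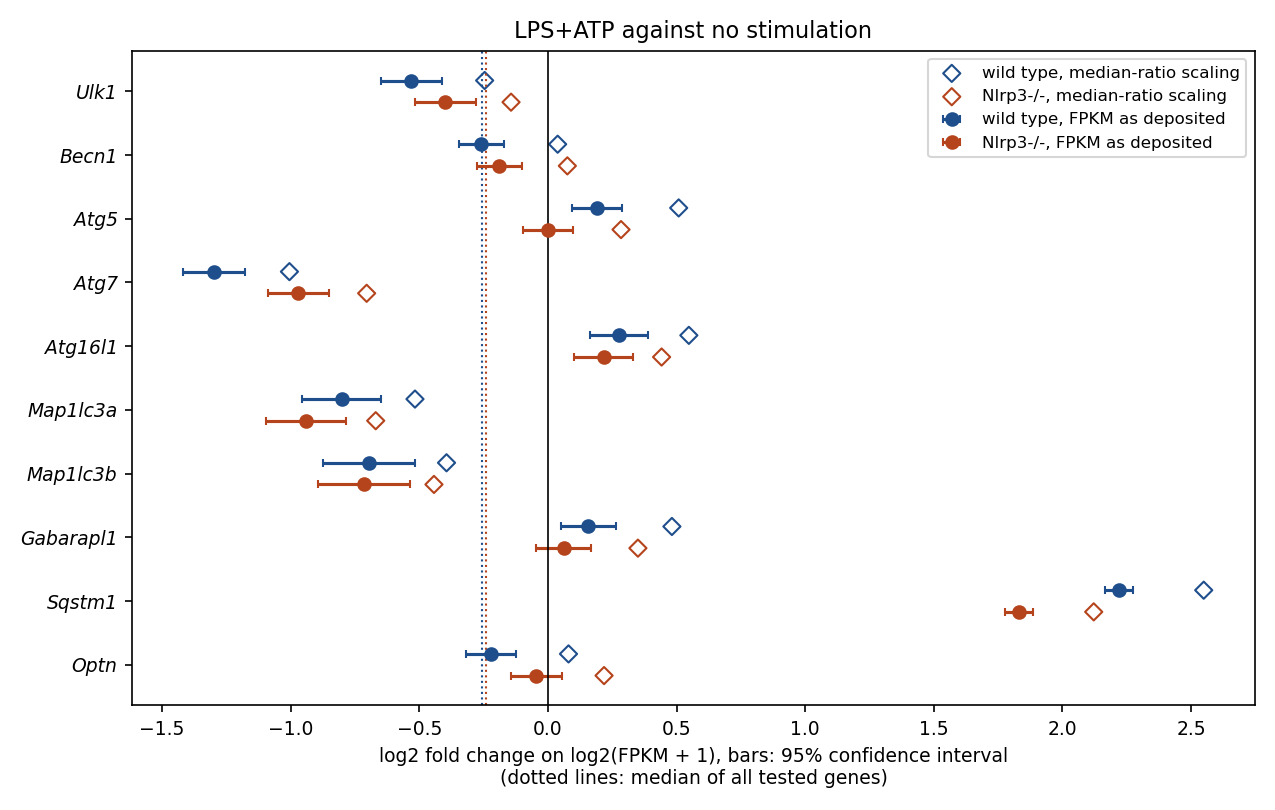
Log2 fold change of each member with LPS and ATP (x axis, log2(FPKM + 1) scale) in wild-type (blue) and Nlrp3-/- (orange) BMDMs. Circles with bars are estimates with 95% confidence intervals from FPKM as deposited, diamonds are estimates after median-ratio scaling, and dotted lines are the medians of all tested genes. Sqstm1 stood at 2.22 and 1.83 and Atg7 at -1.30 and -0.97, while under median-ratio scaling Becn1 and Optn changed sign in both genotypes, and Atg5 and Gabarapl1 became called in Nlrp3-/- BMDMs.

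The genotypes were compared next, which addresses what the absence of Nlrp3 goes with. Without stimulation, 2 members were higher in Nlrp3-/- BMDMs, Map1lc3a and Atg5, where 33.3% of all tested genes were, and 2 were lower, Atg7 and Optn, where 14.5% were. With LPS and ATP, 2 were higher, Map1lc3a and Becn1 (35.9% of all tested genes), and 1 was lower, Sqstm1 (12.6%). As DEGs, 0 members were called without stimulation, against 6.71% of all tested genes, and 0 with it, against 5.05% (limma). At adjusted p under 0.05 alone the counts were 4 and 3.

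Map1lc3a was higher in Nlrp3-/- BMDMs by 0.62 ± 0.07 (SE) on the log2 scale without (adjusted p = 2.1e-05, limma) and by 0.48 ± 0.07 with stimulation (adjusted p = 0.00016), in 3 of 3 libraries each, under every scaling tried. Atg7 was lower without stimulation by a log2 difference of -0.43 (adjusted p = 5.3e-05), and Optn by -0.20 (adjusted p = 0.00354). Sqstm1 did not pass the test without stimulation (0.01, adjusted p = 0.726) and was lower with LPS and ATP (-0.38, adjusted p = 2.4e-07), a ratio of mean FPKM of 0.769. Median-ratio scaling gave Map1lc3a 0.47 without and 0.32 with stimulation. It gave -0.57 for Atg7 and -0.33 for Optn without stimulation, and -0.57 for Sqstm1 with LPS and ATP.

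The remaining genotype calls were small and depended on the scaling. The all-gene median was 0.09 without and 0.11 with stimulation, and -0.03 and -0.04 under median-ratio scaling, which turned the split of called genes from 4203 higher and 1832 lower to 2587 and 3230 without, and from 4531 and 1593 to 2871 and 3431 with stimulation. Under it, 1 member was higher and 5 were lower without stimulation (Sqstm1, Ulk1, Atg7, Atg16l1 and Optn), and 1 was higher and 6 were lower with it. Of all tested genes, 20.5% were higher and 25.6% lower without stimulation, and 22.7% and 27.2% with it. The 6 lower members with stimulation were Sqstm1 and Atg7 along with Gabarapl1 (-0.26, adjusted p = 0.00101), Atg5 (-0.22, adjusted p = 0.00098), Atg16l1 (-0.29, adjusted p = 0.00051) and Optn (-0.20, adjusted p = 0.00353). The same 6 were lower under upper-quartile scaling, where 20.7% of all tested genes were. Map1lc3a was the member that stayed higher in both. The Atg5 difference (0.15, adjusted p = 0.0157, limma) became 0.00, and the Becn1 difference with LPS and ATP (0.14, adjusted p = 0.0153) became -0.04. The Atg5 call was also lost without the second or the third unstimulated wild-type library or the first or the third unstimulated Nlrp3-/- library (adjusted p between 0.0529 and 0.0615), and the Becn1 call without the first stimulated library of either genotype (adjusted p of 0.0599 and 0.0582).

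Markers of other cell types moved with genotype, and in bulk libraries fewer cells of a type and less RNA per cell cannot be told apart. All 6 fibroblast markers were higher in Nlrp3-/- BMDMs in both states, with a summed level of 157, 162 and 160 FPKM in unstimulated wild-type and 1175, 1182 and 1165 FPKM in unstimulated Nlrp3-/- libraries. With LPS and ATP the sums were 181, 183 and 182 FPKM, and 898, 891 and 907 FPKM, with Col1a1 the most abundant. Of 7 neutrophil and granulocyte precursor markers, 6 were tested and all 6 were higher without stimulation, with sums of 238, 252 and 271 FPKM in wild-type against 1456, 1411 and 1421 FPKM in Nlrp3-/- libraries. With LPS and ATP, 5 of the 6 were higher, with sums of 313, 323 and 312 against 631, 633 and 636 FPKM. With stimulation 5 of the 6 fell and 1, Lcn2, rose in both genotypes, from a mean of 9.96 to 218 FPKM in wild-type and from 43.2 to 208 FPKM in Nlrp3-/- BMDMs. Lcn2 was the most abundant in the stimulated wild-type libraries, and S100a9 in all others. The macrophage markers summed to 19860, 21110 and 21010 FPKM in unstimulated wild-type and 18970, 19250 and 19210 FPKM in unstimulated Nlrp3-/- libraries, and to 11740, 11700 and 11780 and to 11140, 11290 and 11070 FPKM with stimulation. Lyz2 made up most of these sums, with a mean of 18464 FPKM in unstimulated wild-type and 17693 in unstimulated Nlrp3-/- BMDMs. Of the 8 macrophage markers, 5 were lower in Nlrp3-/- BMDMs without and 4 with stimulation, and 0 were higher in either state. Without stimulation Cd68 had means of 1450 FPKM in wild-type and 877 in Nlrp3-/- BMDMs, and Csf1r of 253 and 164. With LPS and ATP, 3 of the 8 were called higher and 4 lower in wild-type BMDMs, and 4 and 3 in Nlrp3-/- BMDMs.

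The other marker lists were low. T cell markers summed to at most 0.0905 FPKM in any library, and dendritic cell markers to at most 0.559. B cell markers summed to at most 1.53 FPKM in wild-type and 4.71 in Nlrp3-/- libraries, mast cell and basophil markers to at most 1.94 and 10.2, and erythroid markers to at most 0.975 and 8.24. Averaged over the 12 libraries, Cd79b, Mcpt8 and Hbb-bs were the most abundant of these lists, though Hbb-bt had a higher mean than Hbb-bs in every group but the unstimulated Nlrp3-/- BMDMs. Endothelial markers summed to between 8.16 and 12.7 FPKM across the 12 libraries. Without stimulation, their most abundant gene on average, Vwf, had a mean of 8.67 FPKM in wild-type and 5.29 in Nlrp3-/- BMDMs, and Cdh5, which led in the stimulated Nlrp3-/- libraries, had 1.51 and 5.19. The part of these cells in the differences of Map1lc3a, Atg7, Optn and Sqstm1 between genotypes was not tested.

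**Figure D4:**
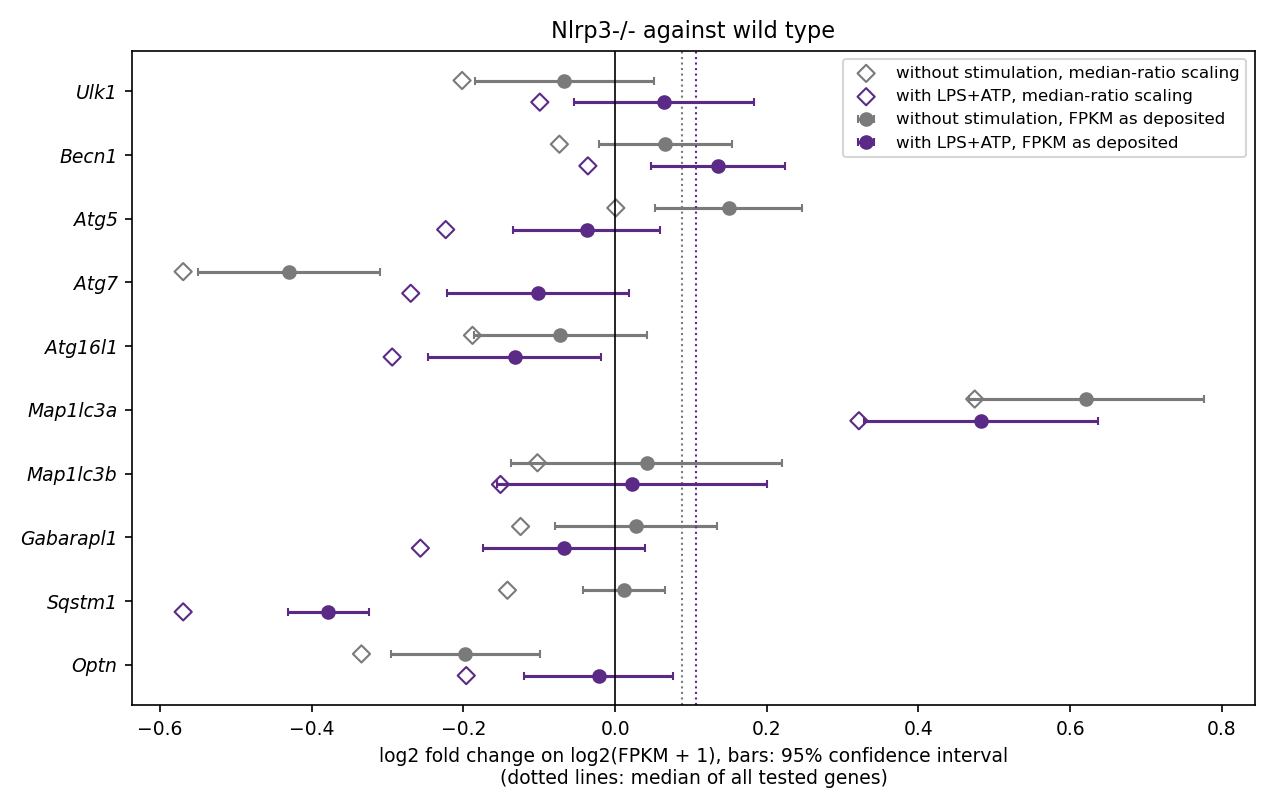
Log2 fold change of each member in Nlrp3-/- against wild-type BMDMs (x axis, log2(FPKM + 1) scale) without stimulation (grey) and with LPS and ATP (purple). Circles with bars are estimates with 95% confidence intervals from FPKM as deposited, diamonds are estimates after median-ratio scaling, and dotted lines are the medians of all tested genes. Map1lc3a stood at 0.62 and 0.48, and Sqstm1 at 0.01 and -0.38.

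Whether the response to LPS and ATP differed between genotypes was tested with the interaction term, the response in Nlrp3-/- BMDMs minus that in wild-type BMDMs. It was called positive for 1 member, Atg7, where 14.7% of all tested genes were, and negative for 2, Sqstm1 and Atg5, where 13.0% were. As DEGs, 0 members were called, against 2.15% of all tested genes. At adjusted p under 0.05 alone the count was thus 3. The Sqstm1 rise was smaller in Nlrp3-/- BMDMs by -0.39 ± 0.03 (SE, adjusted p = 1.2e-05, limma), and the Atg7 fall was smaller by 0.33 ± 0.08 (adjusted p = 0.0088). Both kept direction and call under each alternative run for this term. In FPKM as deposited, the unstimulated Atg7 levels differed between genotypes while the stimulated ranges overlapped, and for Sqstm1 it was the reverse. The stimulated Atg7 difference was called under upper-quartile (-0.21, adjusted p = 0.00875) and median-ratio scaling (-0.27, adjusted p = 0.00146), and the unstimulated Sqstm1 difference under median-ratio scaling (-0.14, adjusted p = 0.00071). The Atg5 term (-0.19, adjusted p = 0.0451) was lost without any of 9 of the 12 libraries and under 3 other alternatives, with adjusted p between 0.0555 and 0.101, and it was called under upper-quartile (-0.23, adjusted p = 0.0139) and median-ratio scaling (-0.22, adjusted p = 0.0162). The other 7 members, Map1lc3b with the smallest term among them (-0.02, adjusted p = 0.925), did not pass the test. The terms of Map1lc3a, Gabarapl1 and Atg16l1 were -0.14, -0.09 and -0.06, and those of Optn, Ulk1 and Becn1 were 0.18, 0.13 and 0.07.

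The wider pathway was described with a list of 70 genes by role, the 10 members included, of which 67 were tested. With LPS and ATP, 13 of the 67 were called higher, where 23.3% of all tested genes were, and 39 called lower, where 53.1% were, in wild-type BMDMs, with a median log2 fold change of -0.37 against -0.255 over all tested genes. The counts in Nlrp3-/- BMDMs were 10 (20.6% of all tested genes) and 43 (53.8%), with a median of -0.33 against -0.242. Between genotypes without stimulation, 7 were higher in Nlrp3-/- BMDMs (33.3% of all tested genes) and 21 were lower (14.5%, median -0.07 against 0.09), and with LPS and ATP 9 were higher (35.9%) and 16 lower (12.6%, median -0.02 against 0.11). The interaction was positive for 10 (14.7% of all tested genes) and negative for 8 of the 67 (13.0%, median 0.05 against 0.02). Median-ratio scaling gave 23 higher and 29 lower with LPS and ATP in wild-type BMDMs, where 35.4% and 35.7% of all tested genes were, and 23 and 25 in Nlrp3-/- BMDMs (32.6% and 33.0%). Between genotypes it gave 3 higher and 42 lower without stimulation (20.5% and 25.6% of all tested genes) and 2 higher and 32 lower with it (22.7% and 27.2%). Calcoco2 was listed at 0 in all 12 libraries, and Atg9b stayed below the filter.

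The counts by role are to be read against the same shares of all tested genes, 23.3% higher and 53.1% lower in wild-type and 20.6% and 53.8% in Nlrp3-/- BMDMs. Under median-ratio scaling, whose counts stand in brackets, those shares are 35.4% and 35.7% in wild-type and 32.6% and 33.0% in Nlrp3-/- BMDMs. The role lists were not tested against each other. Of the 5 genes of the ULK1 complex, 0 were higher and 4 lower in wild-type BMDMs (1 and 3), and 0 and 5 in Nlrp3-/- BMDMs (1 and 3). The log2 fold change of the kinase paralog Ulk2 was -1.54 in wild-type and -1.29 in Nlrp3-/- BMDMs. Of 8 genes of the lipid kinase complex, 0 were higher and 7 lower in wild-type BMDMs (0 and 4), and 0 and 6 in Nlrp3-/- BMDMs (0 and 3). Of 11 conjugation genes, 5 were higher and 2 lower in wild-type BMDMs (8 and 2), and in Nlrp3-/- BMDMs 3 and 4 (7 and 2). Of 9 tested genes that supply membrane, 1 was higher and 2 lower in wild-type BMDMs (6 and 2), and in Nlrp3-/- BMDMs 1 and 5 (4 and 1). Among these was Vmp1, a membrane protein of the endoplasmic reticulum, at 1.02 in wild-type and 0.74 in Nlrp3-/- BMDMs. Of 14 fusion genes, 2 were higher and 11 lower in wild-type BMDMs (3 and 8), and 2 and 11 in Nlrp3-/- BMDMs (3 and 7). Tecpr1, a tethering factor, went from a mean of 23.4 to 3.51 FPKM in wild-type BMDMs (log2 fold change -2.43) and from 10.4 to 3.20 FPKM in Nlrp3-/- BMDMs (-1.44), and it was also lower in Nlrp3-/- BMDMs without stimulation (-1.10). Plekhm1, an adaptor for lysosome fusion, changed by -1.19 and -1.04.

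Among the cargo receptors, 3 of 13 tested genes were higher and 8 lower in wild-type BMDMs (3 and 6 under median-ratio scaling), and in Nlrp3-/- BMDMs 3 and 7, which that scaling turned to 6 and 4. Sqstm1 and Bnip3 were the higher DEGs in wild-type BMDMs, and Calcoco1 and Retreg1, a receptor for the endoplasmic reticulum, the lower ones. Bnip3, a receptor on mitochondria, went from a mean of 15.3 to 63.9 FPKM in wild-type BMDMs (log2 fold change 1.99) and from 30.7 to 56.998 FPKM in Nlrp3-/- BMDMs (0.87, called but not a DEG), and its interaction term was -1.12 (adjusted p = 5.7e-06, limma). Calcoco1 changed by -1.24 and -1.11, and Retreg1 by -1.45 and -0.80. With median-ratio scaling Calcoco1 stood at -0.97 and -0.86, called but a DEG in neither genotype. Bnip3l, the paralog of Bnip3, was a lower DEG in Nlrp3-/- BMDMs (-1.08, adjusted p = 0.0157), but that call was lost without the third stimulated Nlrp3-/- library (-0.72, adjusted p = 0.0652), which had 10.5 FPKM against 23.9 and 22.8. It was lost under median-ratio scaling too (-0.79, adjusted p = 0.0653). In wild-type BMDMs Bnip3l was not called (-0.07, adjusted p = 0.868, limma), and the second unstimulated library had 14.8 FPKM against 40.5 and 35.8. The interaction term of Bnip3l did not pass the test (-1.01, adjusted p = 0.159). Of 2 tested kinases of selective autophagy, Pink1, which marks damaged mitochondria, fell by 2.18 and by 1.62, and Tbk1, which phosphorylates receptors, rose by 0.83 and by 0.74.

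**Figure D5:**
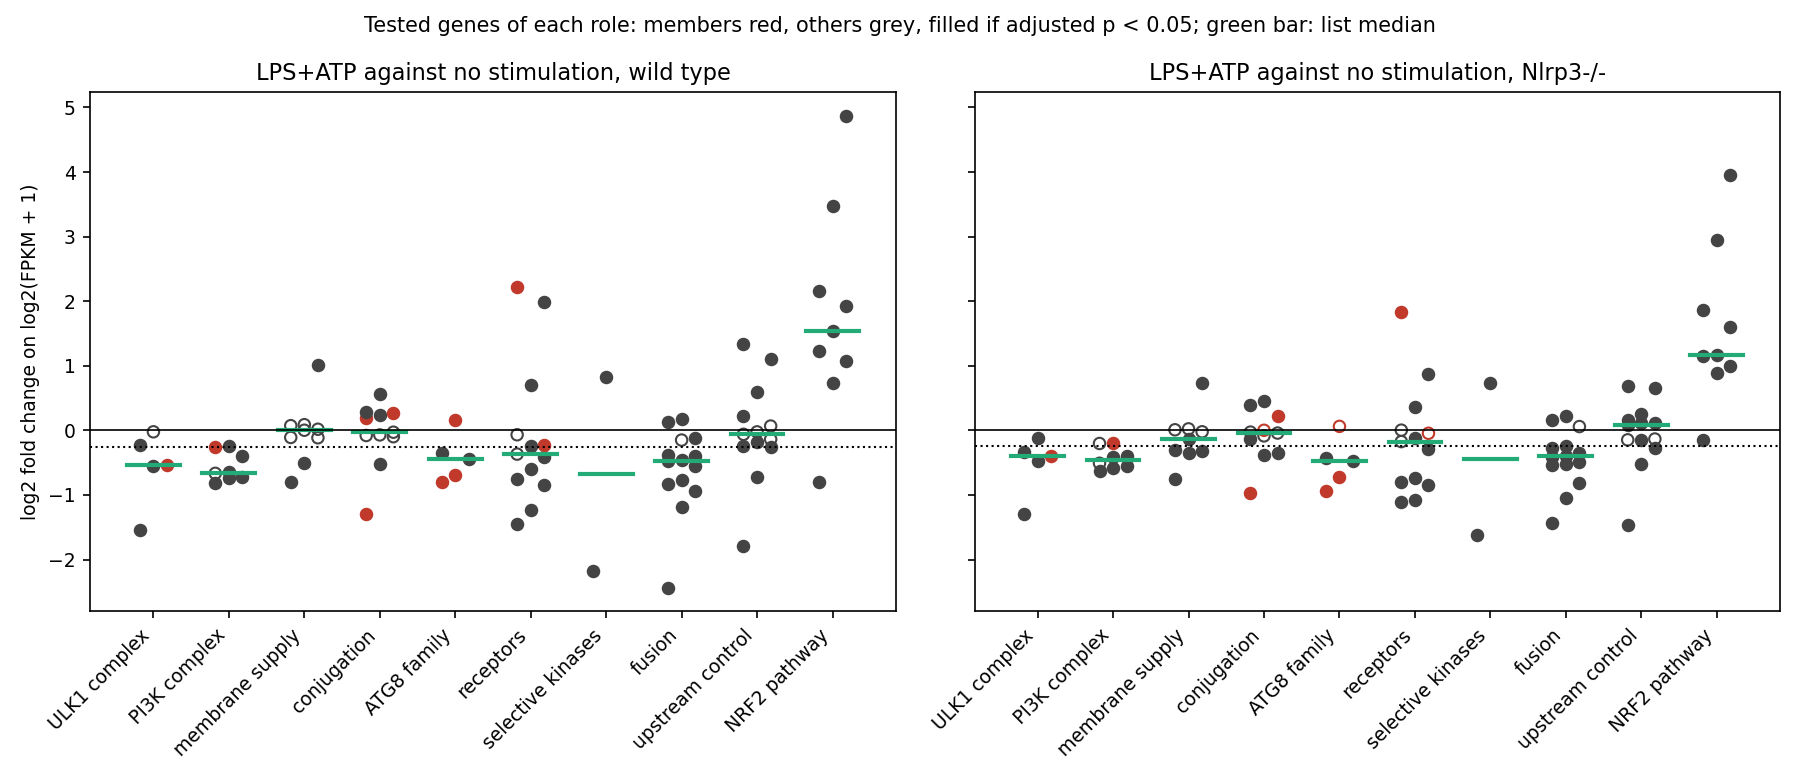
Log2 fold change with LPS and ATP (y axis, log2(FPKM + 1) scale) of each tested gene of the role lists (x axis) in wild-type (left) and Nlrp3-/- (right) BMDMs. Members are red, other genes grey, filled where called, green bars are list medians and dotted lines the medians of all tested genes. The NRF2 list had medians of 1.54 and 1.16, while the role lists of the autophagy machinery had medians from -0.67 to 0.00 in wild-type BMDMs; under median-ratio scaling the conjugation list turned from -0.03 to 0.27, and the membrane list had 0.28.

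Control genes upstream of autophagy split in both directions. Of 13 tested, 4 were called higher and 5 lower in wild-type BMDMs, against 23.3% and 53.1% of all tested genes (7 and 2 under median-ratio scaling, against 35.4% and 35.7%). The counts in Nlrp3-/- BMDMs were 7 and 4, against 20.6% and 53.8% (7 and 2 under that scaling, against 32.6% and 33.0%). Tfeb, a transcription factor for lysosome and autophagy genes, fell by 1.79 and by 1.46. Sesn2 and Ddit4, which restrain the mTOR kinase, rose in wild-type BMDMs by 1.34 and 1.10, and in Nlrp3-/- BMDMs by 0.65 and 0.70. Ddit4 was also higher in Nlrp3-/- than in wild-type BMDMs, by 1.68 without and by 1.27 with stimulation.

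Sqstm1 is a known target of the transcription factor NRF2 (Nfe2l2), so 9 genes of that pathway were listed as well. With stimulation 8 of them were higher and 1 lower in each genotype, against 23.3% and 53.1% of all tested genes in wild-type and 20.6% and 53.8% in Nlrp3-/- BMDMs, with a median of 1.54 in wild-type and 1.16 in Nlrp3-/- BMDMs. The lower gene was Nfe2l2 itself, at -0.80 and -0.15, and under median-ratio scaling all 9 were higher in Nlrp3-/- BMDMs. The largest rises were those of Slc7a11 (4.87 and 3.95), Hmox1 (3.48 and 2.95), Srxn1 (2.15 and 1.87) and Txnrd1 (1.93 and 1.60). Hmox1 went from a mean of 435 to 4851 FPKM in wild-type and from 414 to 3195 FPKM in Nlrp3-/- BMDMs. Between genotypes without stimulation, 4 of the 9 were higher and 3 lower, against 33.3% and 14.5% of all tested genes (3 and 3 under median-ratio scaling, against 20.5% and 25.6%). Between stimulated genotypes 2 were higher and 4 lower, against 35.9% and 12.6% (2 and 6 under median-ratio scaling, against 22.7% and 27.2%, and 2 and 2 under TPM, against 38.5% and 11.6%). The interaction was positive for 1 and negative for 4, against 14.7% and 13.0%, with a median of -0.34. Of 7 of these genes matched to a RefSeq promoter, 4 held the antioxidant response element in at least 1 window, Txnrd1 in 1 of its 3, against 12.4% of all single windows. The Sqstm1 window did not hold it. Only these short windows at the RefSeq start were searched, so an element farther away would have been missed. Control of Sqstm1 by NRF2 was not tested.

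The genes most like 3 of the members in pattern were found by Pearson r of log2(FPKM + 1) over the 12 libraries, which fall into 4 groups, so r mostly reflects the group means. For Sqstm1 they were Hmox1 (r = 0.9997), Tnfrsf1b, Grina, F10 and Pdpn (r = 0.9992). For Ulk1 they were Atpaf1 (r = 0.9916), Adamts10, Aes, Epn1 and Mettl17 (r = 0.9864). For Gabarapl1, whose level moved little, they were Ikbkg (r = 0.8714), Gm22200, Ccnj, Gm7730 and Gm24158 (r = 0.8366).

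Sqstm1, Map1lc3b, Gabarapl1, Becn1 and Optn have exons that overlap a gene on the opposite strand in GENCODE M21. Whether counting used the strand is not given in the sources used here, so reads of such pairs cannot be told apart. In a search of all annotated transcripts, the stretches of at least 95% identity over at least 20% of a member's longest transcript were those shared with Mrnip (Sqstm1), 1700101I11Rik (Gabarapl1) and Cntd1 (Becn1). These 3 genes reached at most 1.02, 0.379 and 0.154 FPKM in any library.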

How the data were processed

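Total RNA of 12 BMDM libraries (TRIzol, Illumina TruSeq RNA kit) was sequenced by the authors, and the deposited values are FPKM per gene and library, with no pooling. The submitters' processing notes name GRCm39 and DESeq2 1.24.0, and the aligner and counter are not given in the sources used here. There were 0 unused columns of samples, and no count test was run because the unit is FPKM. Absolute depth is unknown. Relative depth, from the commonest ratio of values under 0.1 FPKM to the first unstimulated wild-type library (rounded to 3 decimals), was 1.00 to 1.22.

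limma 3.58.1 in R 4.3.3 was fitted to log2(FPKM + 1) with 1 mean per group, a variance trend and all 12 libraries, for 12622 genes with at least 1 FPKM in at least 3 libraries. Benjamini-Hochberg adjustment ran over all of them, at a threshold of 0.05, and a DEG also had an absolute log2 fold change of at least 1. The fit was tested on simulated data. Tables and figures were made with Python 3.11.15, pandas 2.3.3 and matplotlib 3.10.9, and transcripts were searched with BLAST+ 2.17.0. Libraries of a group correlated at r of 0.9897 to 0.9925, and no tested gene above 0 had the same value in a pair of them.

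The members and lists were chosen with earlier results of these data known. All 10 members were named in each comparison. Of each role list, at most the 4 non-member DEGs with the largest change were named per comparison, along with the 5 genes most like Sqstm1, Gabarapl1 and Ulk1. Nfe2l2, Gabarap, Tbk1, Mitf, Tfe3, Lcn2, Cd68, Csf1r, Cdh5, Hbb-bt, Xist, Nnt and the Y-linked genes were chosen after their values were seen. Alternatives tried were pseudocount, filter, TPM, upper-quartile and median-ratio scaling, the variance trend, only the groups compared, a replicate block and each library left out. Gene IDs were matched to reference names for 55154 of 55335. Depp1 was matched by gene ID because the table carries another symbol. Atg9b, Calcoco2, Prkaa2 and Depp1 were not tested, and 1 listed gene is not reported here.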

Additional observations from a re-analysis of the deposited data

Results flagged for a closer look

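The response to LPS and ATP differed between Nlrp3-/- and wild-type BMDMs by the interaction term (limma, adjusted over all tested genes) for 3 members, Sqstm1 (-0.39), Atg5 (-0.19) and Atg7 (0.33), each the log2 response in Nlrp3-/- minus that in wild-type BMDMs. Of all tested genes, 14.7% had a positive and 13.0% a negative term called. The Atg5 term was lost without most single libraries, though it was called under upper-quartile and median-ratio scaling.

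Among the other genes named, rises were smaller in Nlrp3-/- BMDMs for the LPS-induced genes Il1b (-1.46), Tnf (-1.0), Il6 (-0.58) and Lcn2 (-2.08), and for Bnip3 (-1.12), Slc7a11 (-0.92), Sesn2 (-0.69), Hmox1 (-0.53), Ddit4 (-0.40), Txnrd1 (-0.33) and Vmp1 (-0.28). The term for Cdh5 was -0.45. Falls were smaller there for Tecpr1 (0.99), Retreg1 (0.64), Pink1 (0.57), Ulk2 (0.25) and Nfe2l2 (0.65). Unstimulated means of Il1b were 0.239 FPKM in wild-type and 1.46 in Nlrp3-/- BMDMs, and those of Il6 were 0.0446 and 0.425. These are low beside the 1 added before taking logs, so the size of both terms depends on it. Lcn2 had means of 218 and 208 FPKM with stimulation, from 9.96 and 43.2 without. Apart from Sqstm1 and Ulk2, each gene named here was also called different between genotypes without stimulation. The alternatives were run for the interaction terms of the members and not for all of these other genes. The cause of these differences was not tested, and genotype and sex cannot be told apart.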

How the results depend on the processing

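After stimulation, Sqstm1, Atg7, Map1lc3a, Map1lc3b and Ulk1 kept direction and stayed at an adjusted p under 0.05 under each alternative run, as did the Sqstm1 and Atg7 interaction terms. Totals over both directions that moved by over 1.5 times were these. At an FPKM of at least 5, changed genes were 6262 in wild-type and 6062 in Nlrp3-/- BMDMs with stimulation, and DEGs between unstimulated genotypes were 515, since fewer genes were tested. A pseudocount of 0.1 gave 3702 and 2847 DEGs with stimulation, 1428 and 1406 between genotypes without and with it, and 634 for the interaction, and 3 members called DEG in Nlrp3-/- BMDMs, Sqstm1, Atg7 and Map1lc3a. TPM gave 1285, 1175 and 501 DEGs for the genotypes without and with stimulation and the interaction. Members changed between stimulated genotypes were 7 under upper-quartile and 7 under median-ratio scaling, and pathway genes changed between unstimulated genotypes were 45 under median-ratio scaling. Counts in 1 direction moved further under scaling. Median-ratio scaling gave the splits printed with the comparisons, and took lower DEGs with stimulation from 1411 to 876 in wild-type and from 1036 to 604 in Nlrp3-/- BMDMs, and lower DEGs between stimulated genotypes from 72 to 117. Upper-quartile scaling took genes lower between stimulated genotypes from 1593 to 2610. The cause was not tested.

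Directions turned under scaling, given as log2 fold changes for upper-quartile and then median-ratio scaling. Between unstimulated genotypes these were Sqstm1 (-0.0608, -0.1420), Map1lc3b (-0.0266, -0.1024), Gabarapl1 (-0.0446, -0.1247) and Becn1 (-0.0001, -0.0735). Between stimulated genotypes they were Map1lc3b (-0.0866, -0.1512), Ulk1 (-0.0381, -0.0993) and, under median-ratio scaling, Becn1 (-0.0359). With stimulation, median-ratio scaling turned Becn1 (0.0380 in wild-type, 0.0757 in Nlrp3-/- BMDMs) and Optn (0.0802 and 0.2184), and Optn in Nlrp3-/- BMDMs also turned under TPM (0.0130) and upper-quartile scaling (0.0697). The cause was not tested.

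Leaving out each library in turn left an arm with 2 libraries. Members changed ranged from 9 to 10 (wild type) and 7 to 7 (Nlrp3-/-) with stimulation, from 3 to 4 and 2 to 5 between genotypes without and with it, and from 2 to 4 for the interaction. Members called DEG ranged from 2 to 2, 1 to 2, 0 to 0, 0 to 0 and 0 to 0 in that order. Values near 0 that turned, with their range, were Sqstm1 (-0.0055 to 0.0251), Map1lc3b (-0.0450 to 0.0937) and Gabarapl1 (-0.0043 to 0.0564) between unstimulated genotypes, Map1lc3b between stimulated genotypes (-0.0204 to 0.1061) and for the interaction (-0.0715 to 0.0672), Atg5 with stimulation in Nlrp3-/- BMDMs (-0.0326 to 0.0245), and Optn between stimulated genotypes (-0.0385 to 0.0089). Without the second stimulated wild-type library, Gabarapl1 differed between stimulated genotypes (-0.12, adjusted p = 0.0354 by limma), as it did under upper-quartile (-0.19, adjusted p = 0.00936) and median-ratio scaling (-0.26, adjusted p = 0.00101).

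Libraries share replicate numbers across groups, and deviations of same-numbered libraries correlated at r of -0.0565 to 0.0528, so no shared deviation was seen. Whether same-numbered libraries came from the same animal or culture is not given, and these correlations cannot decide it. With a replicate block the members changed were 10, 7, 4, 3 and 3 over the 5 comparisons, and the block kept direction and call for each of the 86 gene values it was run for, which do not include the interaction terms of most genes outside the members. Absolute depth is unknown, which limits what can be said of low genes.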
